A study of Mus musculus with 16 samples.

Results

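The normal mouse heart at embryonic day 10.5 was described from the RNA of 4 wild-type embryos (Ing4+/+ Ing5+/+). They are the 4 libraries labelled with both genes intact, of 16 in a series of 4 genotypes with 4 hearts each. The remaining 12 hearts carried Ing4+/-, Ing5-/- or both genotypes together. Ing4 and Ing5 encode related subunits of histone acetyltransferase complexes. Each wild-type heart was a separate embryo, heart 1 from litter 4, hearts 2 and 3 from litter 5 and heart 4 from litter 6. The mouse strain and the sex of the embryos are not given in the labels, and none of the 4 embryos carried a Cre, a transgene or a treatment that the labels name.

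At this stage the mouse heart beats as a looped tube whose atrial and ventricular chambers are growing outward, and it already drives the circulation. Its wall holds cardiomyocytes, an inner endocardium that lines the lumen, and cushions of mesenchyme that will form valves and septa. The epicardium, a cell layer that spreads over the surface from the proepicardium, is arriving. The inflow region receives the veins and holds the pacemaker cells, and the lumen is filled with primitive red cells from the yolk sac.

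Total RNA was sequenced, and the libraries held 21640746, 29191742, 26452277 and 19753100 counted reads in hearts 1 to 4. The levels below are in TPM, a unit in which all genes of a library add up to 1000000, computed from the deposited counts and gene lengths so that levels of different genes can be compared per length. A gene with 0 reads could still lie at up to 0.103 to 0.152 CPM (reads scaled to a library of 1000000), the level that 3 reads would give in these libraries. In whole hearts, fewer cells of a type and less RNA per cell cannot be told apart. Counts were summed per gene, so splice forms of a gene cannot be seen, and near-identical genes such as Hba-a1 and Hba-a2 may share reads.

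The targeted genes were read first as a check of the labels. Ing4 stood at 56, 36.1, 58.2 and 57.3 TPM in hearts 1 to 4, and Ing5 at 16.3, 16.8, 13.5 and 15.9 TPM. Heart 2 was the low one for Ing4, and its 36.1 TPM lay under the lowest of the 4 Ing4+/- Ing5-/- hearts (41.3 TPM) and of the 4 Ing4+/- Ing5+/+ hearts (41.1 TPM). The library labelled wild-type 2 therefore goes against its label for Ing4, while its Ing5 was the highest of the wild-type hearts. It is called heart 2 here, and the leading results are also given without it. For Ing5, the Ing4+/+ Ing5-/- hearts stood at 8.53 to 14.9 TPM. The lowest wild-type heart, at 13.5 TPM, lay under the highest of them. The Ing4+/- Ing5-/- hearts, at 8.93 to 10.5 TPM, lay below all wild-type hearts. The level of Ing5 thus did not fully separate the Ing5+/+ and Ing5-/- labels. Where the deleted parts of Ing4 and Ing5 lie is not stated in the labels.

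Between 13743 and 13947 genes reached 1 TPM in each heart, and 13212 did so in all 4 (13355 without heart 2). Of these, 12184 (92.2%) were protein-coding. A level of 10 TPM was reached in all 4 hearts by 9158 genes, 100 TPM by 1665 genes and 1000 TPM by 85 genes. The 10 most abundant genes held 12.4% ± 0.837 of all TPM (SD, n = 4; 12.7% without heart 2), and the 100 most abundant held 29.3% ± 0.526. The 10 most abundant protein-coding genes alone held 8.48% ± 0.226. The 15 mitochondrially encoded genes of the table had 0 reads in every heart, so the oxidative genes described below are the nuclear ones. Whether mitochondrial reads were kept in alignment and counting is not given, so this 0 is not read as a level. The TPM totals hold none of that RNA.

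Contractile genes and the globins of primitive red cells led the ranking. Of the 25 most abundant genes, 19 were protein-coding, 3 had no symbol, and the others were the non-coding RNA H19, a microRNA gene and a pseudogene of ubiquitin. The gene ranked first had no symbol and a length of 82 bases, and it took 0.145% of reads, so its place rests on the division by length. Without genes under 200 bases in the total, the 10 most abundant genes held 9.38%.

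The cardiac actin gene Actc1 (chr2:114047282-114052875, GRCm38), which encodes the thin filament of heart muscle, was the most abundant named gene. It stood at 14463, 15879, 16396 and 16589 TPM in hearts 1 to 4, and took 1.03% of reads by mean. An unnamed gene of 5868 bases, at 1.02% ± 0.647 by mean, had more reads than Actc1 in hearts 1 and 4. That gene stood at 6678, 1550, 2103 and 4442 TPM, 4.23-fold apart in library-scaled counts. What it encodes was not established, so its reads are not taken as a trait of the heart. For Actc1, heart 1 was the lowest and the other 3 lay close together. Among the myosin light chains, the ventricular regulatory chain Myl2 stood at 8266, 11268, 9338 and 9691 TPM, the atrial regulatory chain Myl7 at 8306, 8316, 8508 and 7802 TPM and the essential chain Myl4, an embryonic and atrial form, at 7457, 8558, 8240 and 7819 TPM. Heart 2 had the highest Myl2 and Myl4, and the values of Myl7 differed little.

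The promoters of 4 sarcomere genes are shown because they hold a short element that most promoters of the sarcomere list lack. The CArG box, the site known to be bound by serum response factor, was searched on both strands in the RefSeq promoters of GRCm38.p6, 250 bases before to 50 after the start. It was found in 6 of the 27 sarcomere genes with a promoter in the table (22.2%), against 425 of all 27025 genes (1.57%). The 6 genes were Actc1, Myl7, Myl3, Acta1, Myom1 and Ldb3. The promoters of the 4 most abundant follow, 5′ to 3′ along the gene, with the CArG box in capitals: Actc1 on the minus strand at chr2:114052826-114053125, Myl7 on the minus strand at chr11:5898733-5899032, Myl3 on the plus strand at chr9:110763428-110763727 and Acta1 on the minus strand at chr8:123894726-123895025.
Actc1: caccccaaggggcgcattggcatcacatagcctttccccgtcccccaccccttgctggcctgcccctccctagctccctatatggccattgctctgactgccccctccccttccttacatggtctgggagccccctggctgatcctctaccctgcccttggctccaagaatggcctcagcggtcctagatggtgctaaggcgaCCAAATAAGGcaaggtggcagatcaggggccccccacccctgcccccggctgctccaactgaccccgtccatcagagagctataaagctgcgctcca
Myl7: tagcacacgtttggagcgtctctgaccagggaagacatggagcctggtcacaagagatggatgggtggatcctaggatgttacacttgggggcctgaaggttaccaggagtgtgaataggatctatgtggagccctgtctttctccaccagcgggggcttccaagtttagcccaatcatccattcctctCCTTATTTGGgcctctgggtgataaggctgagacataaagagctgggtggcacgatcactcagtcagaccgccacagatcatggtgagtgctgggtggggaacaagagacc
Myl3: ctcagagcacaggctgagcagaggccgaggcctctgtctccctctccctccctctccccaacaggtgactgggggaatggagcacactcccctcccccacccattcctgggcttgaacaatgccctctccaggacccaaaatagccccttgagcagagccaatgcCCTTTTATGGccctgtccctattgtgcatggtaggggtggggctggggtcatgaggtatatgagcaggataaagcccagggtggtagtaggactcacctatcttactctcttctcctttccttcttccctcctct
Acta1: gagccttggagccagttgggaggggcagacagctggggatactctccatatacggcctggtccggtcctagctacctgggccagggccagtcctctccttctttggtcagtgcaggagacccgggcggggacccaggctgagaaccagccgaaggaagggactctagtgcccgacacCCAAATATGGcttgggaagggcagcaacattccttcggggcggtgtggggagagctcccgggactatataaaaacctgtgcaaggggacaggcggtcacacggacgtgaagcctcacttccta
The box began 47 bases before the annotated start in Actc1, 61 in Myl7, 85 in Myl3 and 73 in Acta1. A match of letters does not show that a factor binds there. Serum response factor itself (Srf) stood at 124, 96.3, 118 and 107 TPM and its muscle cofactor Myocd at 53.5, 47.3, 51.8 and 54.7 TPM.

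Other promoter elements were counted in the same way. The GGGCGG element lay in 66.4% of the promoters of protein-coding genes at 1 TPM or more in all 4 hearts, in 21.5% of those under 1 TPM in at least 1 heart, and in 35.9% of all. Promoters of replication and mitosis genes held it in 19 of 23 (82.6%), and those of sarcomere genes in 5 of 27 (18.5%). The TATAAA element lay in 6.74% of the first kind, 22.2% of the others and 14.2% of all, and in 4 of 13 erythroid promoters (30.8%). AGATAA, letters recognised by GATA factors, lay in 4 of 13 erythroid promoters (30.8%), 6 of 27 sarcomere promoters (22.2%) and 11.4% of all. The MEF2 box, known from muscle genes, lay in 3 of 27 sarcomere promoters (11.1%) and 3.26% of all. The MEF2 box can overlap TATAAA. All elements were searched on both strands, a gene was counted once, and each of these lists is small.

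**Figure D1:**
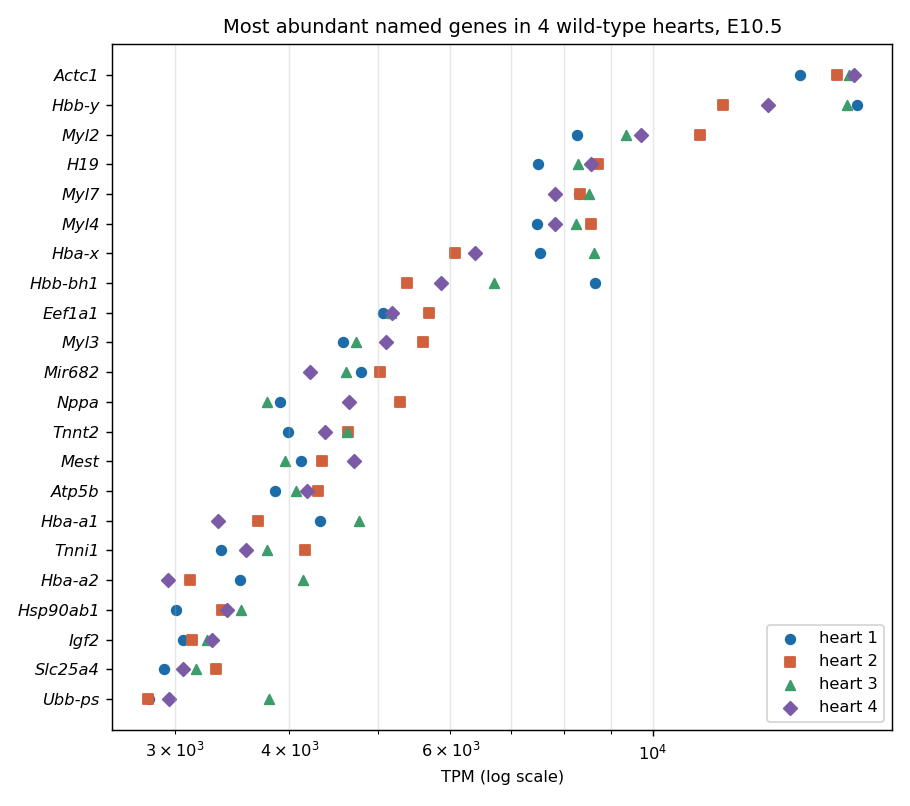
The named genes among the 25 with the highest mean level, with TPM on a log axis and 1 point per wild-type heart. Actc1 lies highest by mean, and the globin genes Hbb-y, Hba-x, Hbb-bh1, Hba-a1 and Hba-a2 lie higher in hearts 1 and 3 than in hearts 2 and 4.

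The sarcomere list of 32 genes took 7.27% ± 0.382 of all TPM (SD, n = 4; 7.14% without heart 2). It was lowest in heart 1, at 6.74%. Of its members, 30 reached 1 TPM in every heart and 25 had a mean of at least 100 TPM. Troponin T of the heart (Tnnt2) stood at 3983, 4632, 4621 and 4376 TPM, slow troponin I (Tnni1) at 3371, 4157, 3784 and 3583 TPM and tropomyosin 1 (Tpm1) at 2148, 2240, 2207 and 2258 TPM. Tpm1 was the steadiest of these, with its 4 values close together. The giant spring protein titin (Ttn) stood at only 20.6, 19, 13.1 and 18.3 TPM, lowest in heart 3. The 2 members under 1 TPM were Neb, which encodes the nebulin of skeletal muscle (0.186 to 0.230 TPM), and Myom2, a gene of mature M-bands (0.211 to 0.447 TPM).

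Several contractile families were held by a single member. Of 38 families of related genes, 15 had 1 member with over 90% of the family's TPM, and 12 had a first member under 60%. Cardiac troponin C (Tnnc1) held 99.9% of its family, cardiac myosin-binding protein C (Mybpc3) 99.0%, the reticulum calcium pump Atp2a2 98.6% and Tnnt2 95.7%. Actc1 held 76.2% of actin, smooth muscle actin Acta2 13% and skeletal actin Acta1 4.05%. Smooth muscle actin is known as an early gene of cardiomyocytes, and Acta2 stood at 2537, 2726, 2761 and 2804 TPM.

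In troponin I the slow skeletal form Tnni1, known as the form of the fetal heart, led the adult cardiac form Tnni3. Tnni3 stood at 1302, 1457, 1364 and 1279 TPM in hearts 1 to 4. The ratio of Tnni1 to Tnni3 was 2.59, 2.85, 2.77 and 2.80, so the order was the same in all 4 hearts. The fast skeletal form Tnni2, at 85.3, 112, 78.2 and 87.4 TPM, held 1.75% of the family.

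The myosin heavy chains were close to balance. Myh7, the slow form of the fetal ventricle, stood at 2102, 2220, 2040 and 2516 TPM, and Myh6, the fast form that dominates the adult mouse heart, at 1786, 1417, 1733 and 1709 TPM. The ratio of Myh7 to Myh6 was 1.18, 1.57, 1.18 and 1.47 in hearts 1 to 4. Myh7 led in every heart, with a share of 56.8% (55.5% without heart 2), and its lead was larger in hearts 2 and 4. The ratio of Myl2 to Myl7 ordered the hearts the same way, at 0.995, 1.35, 1.10 and 1.24. In heart 1 the ventricular and the atrial regulatory chain were level.

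**Figure D2:**
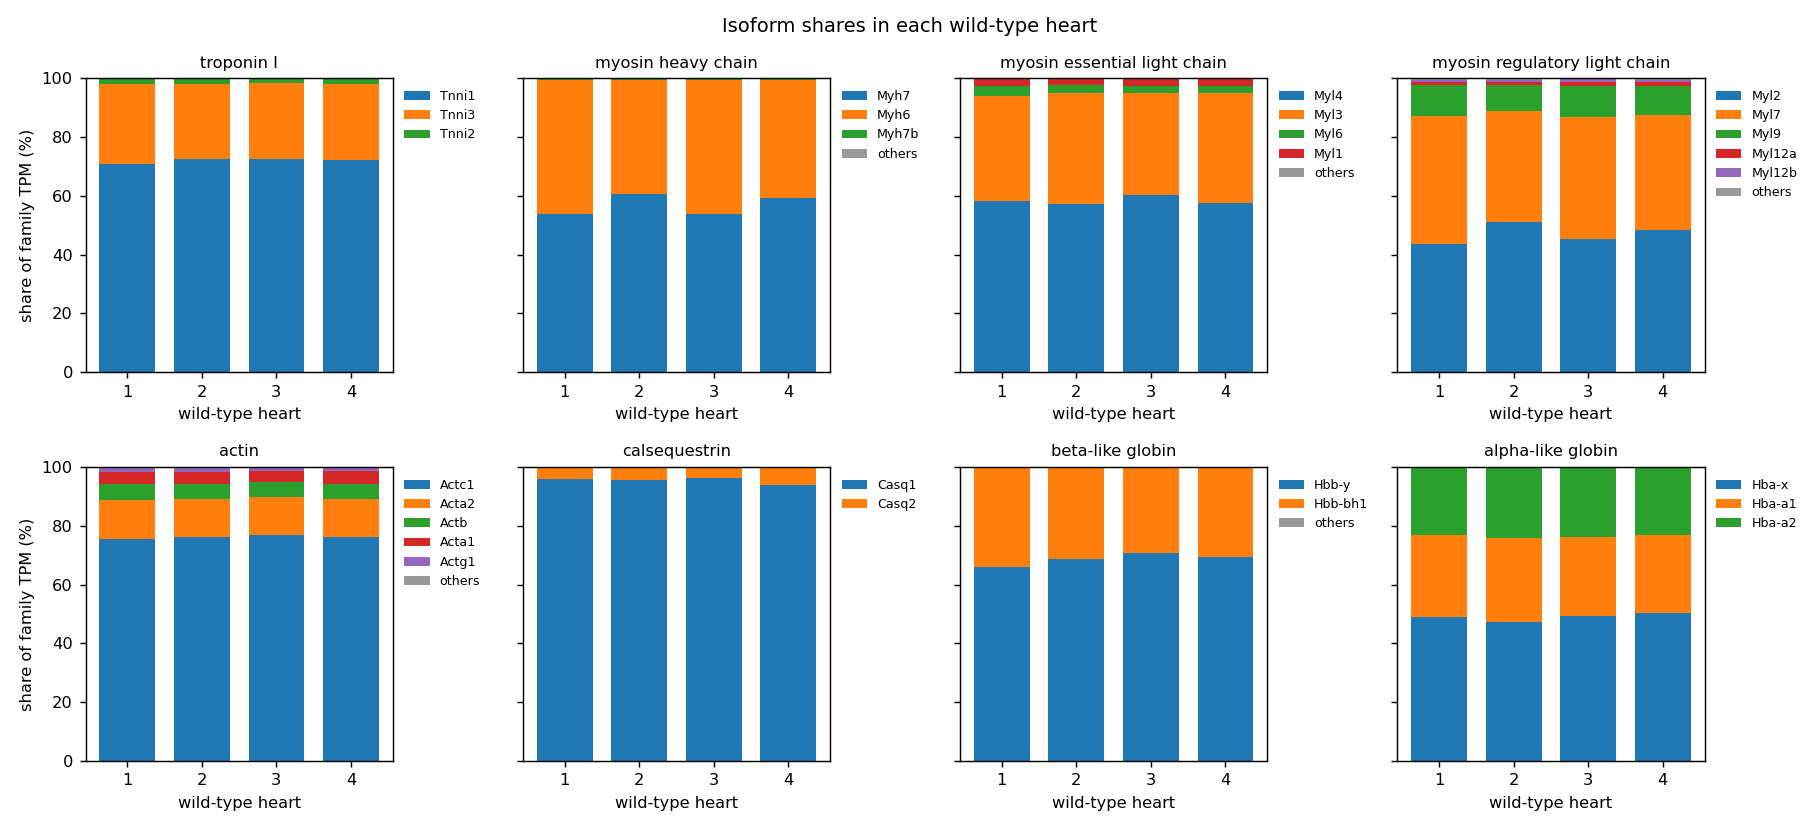
Shares of 8 gene families in each wild-type heart, as percent of the family's summed TPM, with bars stacked to 100%. Tnni1, Actc1 and Casq1 hold the main share in all 4 hearts, and Myh7 and Myl2 take more of their families in hearts 2 and 4 than in hearts 1 and 3.

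Some other families, calsequestrin and the calcium channels among them, had a fetal or non-cardiac member in the lead. Calsequestrin, the calcium store of the reticulum, came from Casq1, the form known from skeletal muscle, at 405, 396, 408 and 393 TPM, with the cardiac form Casq2 at 17.6, 18.6, 15.4 and 25.6 TPM. Casq1 led 15.4-fold to 26.4-fold, with the smallest lead in heart 4. Of the calcium channels, the T-type Cacna1h (62, 51, 59.996 and 60.5 TPM) led the L-type Cacna1c (29.8, 27.2, 29.8 and 33.6 TPM) 1.80-fold to 2.08-fold. T-type channels are known in embryonic myocardium and in pacemaker cells. Hcn4, the pacemaker channel of the sinus node, held 94.3% of its family. Phospholamban (Pln), the brake on the calcium pump, held 99.6% against sarcolipin (Sln), a gene of the atria, which stood at 3.76, 0.412, 1.54 and 0.851 TPM.

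Gap junction genes were shared among several members, with Gja1, the connexin of working myocardium and epicardium, at 37.4% and Gja5, of trabeculae, atria and arteries, at 31.0%. Gja1 stood at 114, 154, 117 and 148 TPM and was higher in hearts 2 and 4. Gja5 stood at 101, 112, 113 and 113 TPM, lowest in heart 1. The natriuretic peptide Nppa, a gene of the chambers, stood at 3910, 5287, 3786 and 4648 TPM and led its relative Nppb 10.4-fold to 13.5-fold. It too was higher in hearts 2 and 4.

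Energy genes carried the glycolytic isoforms of the embryo beside high nuclear oxidative genes. The insulin-independent glucose transporter Slc2a1 stood at 581, 673, 653 and 702 TPM and led the insulin-responsive Slc2a4 35.2-fold to 41.8-fold. Lactate dehydrogenase came from Ldha at 1925, 2245, 2128 and 2071 TPM, 7.10-fold to 7.61-fold above Ldhb. The brain-type creatine kinase Ckb, at 393, 443, 426 and 418 TPM, led the muscle form Ckm 73.7-fold to 137-fold, although Ckm marks mature muscle. The adult muscle forms of other families were already present beside the ubiquitous ones. The muscle enolase Eno3 held 44.7%, the muscle phosphoglycerate mutase Pgam2 48.3%, the heart form Cox6a2 22.6% and the heart form Cox7a1 30.8%. Eno1 and Pgam1 have near-identical copies, so these shares are uncertain. By share of reads Pgam2 held 31.6% and Cox7a1 17.8%.

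The 25 nuclear genes of oxidative phosphorylation took 2.12% ± 0.0921 of TPM, 20 glycolytic genes 1.03% ± 0.0466 and 20 genes of fatty acid oxidation 0.239% ± 0.0114. The beta subunit of the ATP synthase, Atp5b, led with 3858, 4301, 4064 and 4185 TPM. All oxidative and glycolytic genes of the lists reached 1 TPM in every heart. In fatty acid oxidation Ppara, the nuclear receptor that drives these genes in adult muscle, was the exception, at 0.441 to 0.790 TPM. The muscle form of the carnitine transferase, Cpt1b (13.9 to 17.7 TPM), stood beside the liver form Cpt1a (15.2 to 18.1 TPM). Gapdh, at 122 TPM, stood 10.4-fold to 12.2-fold below Tpi1 in these counts. Gapdh has many near-identical copies in the mouse genome, and its level is uncertain.

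All 29 genes of replication and mitosis reached 1 TPM in every heart, and 19 had a mean of at least 100 TPM. The clamp of the replication fork, Pcna, stood at 222, 219.7, 222 and 229.5 TPM, topoisomerase Top2a at 226, 199.96, 229.9 and 234 TPM and the mitotic kinase gene Cdk1 at 162, 169.7, 169 and 161 TPM. Their values lay close together in all 4 hearts. Of the D-type cyclins, which start the cell cycle, Ccnd3 held 52.6%, Ccnd2 29.8% and Ccnd1 17.5%. By share of reads Ccnd2 led with 48.1% and Ccnd3 held 33.3%. The cell cycle inhibitor Cdkn1c, an imprinted gene, was far above them at 2616, 3179, 2748 and 2889 TPM.

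Imprinted genes, expressed from 1 parental copy, were among the most abundant of the heart. The 23 listed took 2.13% ± 0.107 of TPM. H19, a non-coding RNA of the maternal copy, stood at 7482, 8712, 8274 and 8561 TPM, its paternally expressed neighbour Igf2, a growth factor, at 3059, 3132, 3249 and 3291 TPM and Mest at 4116, 4347, 3956 and 4708 TPM. Igf2 differed little between hearts. The clearance receptor Igf2r stood at 619, 599, 585 and 689.9 TPM, and the signalling receptor Igf1r at 24.4, 25.6, 23.5 and 28.6 TPM. Snrpn (0.120 to 0.232 TPM) and Kcnq1ot1 (0.139 to 0.263 TPM) were under 1 TPM in these counts.

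The cardiac transcription factors were present without exception, with all 26 at 1 TPM or more in every heart. Nkx2-5, a master regulator of cardiac identity, stood at 514, 466, 555 and 489 TPM, the zinc finger gene Gata4 at 251, 262, 277 and 263 TPM and the homeodomain-only gene Hopx at 269.9, 329, 282 and 307 TPM. Nkx2-5 was higher in hearts 1 and 3, and Hopx in hearts 2 and 4. Hand2 (159.9 to 171 TPM) led Hand1 (97.5 to 123 TPM), which marks the left ventricle. Isl1, a gene of heart progenitors and of the inflow, had the lowest mean of the list, at 4.26, 4.90, 5.34 and 4.64 TPM.

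Genes of the outflow tract and the second heart field covered a wide range. Of 14 listed, 12 reached 1 TPM in every heart and 8 had a mean of 5 TPM or more. The growth factors Fgf8 (2.25 to 3.94 TPM) and Fgf10 (1.30 to 2.06 TPM) are known from pharyngeal progenitors outside the heart tube. Tbx1 (0.226 to 0.770 TPM), which marks the same progenitors, was under 1 TPM. The outflow genes Bmp4 (42.9 to 59.99 TPM), Wnt11 (42.3 to 46 TPM) and Rspo3 (39.2 to 52.4 TPM) were higher.

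All 27 endothelial and endocardial genes reached 1 TPM in every heart. The highest were Hapln1, a matrix linker made by endocardium at 212, 225, 200.01 and 228 TPM, Plvap at 187, 215, 211 and 237 TPM and the TGF-beta co-receptor Eng at 122, 129, 132 and 141 TPM. Cdh5, the cadherin of endothelial junctions, stood at 81.7, 89.6, 95.7 and 107 TPM. Nfatc1, which marks endocardium, stood at 24.2, 23.3, 25.9 and 27.7 TPM, with little spread. Cldn5, of tight vascular junctions, was low at 1.77 to 3.12 TPM.

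All 16 cushion genes were detected too. Prrx2 stood at 159, 179, 192 and 142 TPM, the cushion proteoglycan Vcan at 167, 158, 138 and 172 TPM and Twist1 at 86.6, 115, 95.8 and 83.3 TPM. Prrx2 and Twist1 are transcription factors of mesenchyme. Postn, a matrix gene of valves, stood at 71.2, 104, 70.8 and 78.7 TPM and was highest in heart 2. In the wider matrix list of 27 genes, fibronectin Fn1 led with 547, 477, 519.9 and 548 TPM, and the collagen known from cartilage, Col2a1, stood at 261, 244, 257 and 312 TPM. Col2a1 thus lay above Col1a1, the main collagen of adult scar, at 83, 104, 90.1 and 90.7 TPM.

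The epicardial genes were clearly present. Of 21 listed, 18 reached 1 TPM in every heart, and the 18 with a mean of at least 5 TPM had a median coefficient of variation of 7.41%, from 1.33 to 29.1%. Upk3b, a mesothelial gene, stood at 163, 176, 177 and 183 TPM, Tcf21 at 75.8, 92.5, 89 and 77.3 TPM and Tbx18 at 46.3, 43.4, 50.4 and 48.1 TPM. The defining factor Wt1 (chr2:105126529-105173614) stood at 45.3, 45.7, 46.7 and 47.8 TPM. Its coefficient of variation of 1.33% was the lowest of the list and lay below its counting error of 2.47%. The retinoic acid enzyme Aldh1a2 stood at 31.1, 34.8, 40.5 and 35.3 TPM. Msln, the mesothelin of mature mesothelium, was at 0.237 to 1.41 TPM, Bnc2 at 0.409 to 0.742 TPM and Dmkn at 0 to 0.316 TPM.

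Markers of other tissues check what the dissection held. The muscle-specifying genes Myod1 and Myf5 had 0 reads in every heart, and Myog, Myf6, Pax3 and Pax7 were at most 0.0784 TPM. Skeletal isoforms were nonetheless measured, with the fast light chain Mylpf at 78, 84.9, 73.9 and 76.6 TPM. Liver and gut genes were near 0, with Hnf4a at 0 reads, Afp at most 0.116 TPM and Alb at 1.34, 0, 0 and 0 TPM. Of 17 genes of endoderm and liver bud, 13 had a mean under 1 TPM. The lung and thyroid factor Nkx2-1 was at most 0.0280 TPM.

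Of 13 neural crest genes, 8 had a mean under 1 TPM and 4 reached 5 TPM. Tfap2b had 0 reads in every heart, and the crest factor Sox10 stood at 0.649, 1.05, 1.39 and 0.571 TPM. The highest of that list, Ednrb and Ets1, are also expressed by endocardium, and Crabp1 (11.6 to 16.5 TPM) and Erbb3 (11 to 12.5 TPM) followed. Of 14 neuronal genes, Gap43 (27.5 to 33.8 TPM), Tubb3 (21.9 to 31.1 TPM) and Nefl (11.3 to 12.9 TPM) passed 5 TPM by mean, and Ina had 0 reads. Leukocyte genes were low as well, with Ptprc, the pan-leukocyte CD45 gene, at 0.0126 to 0.0709 TPM and 11 of 18 genes under 1 TPM by mean. The highest of that list was Lyz2, at 40.3, 62.6, 39.6 and 42.5 TPM. Smooth muscle myosin Myh11 was at 0.388 to 0.969 TPM, although Tagln, an early smooth muscle gene that embryonic cardiomyocytes also express, stood at 839, 871, 837 and 971 TPM.

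**Figure D3:**
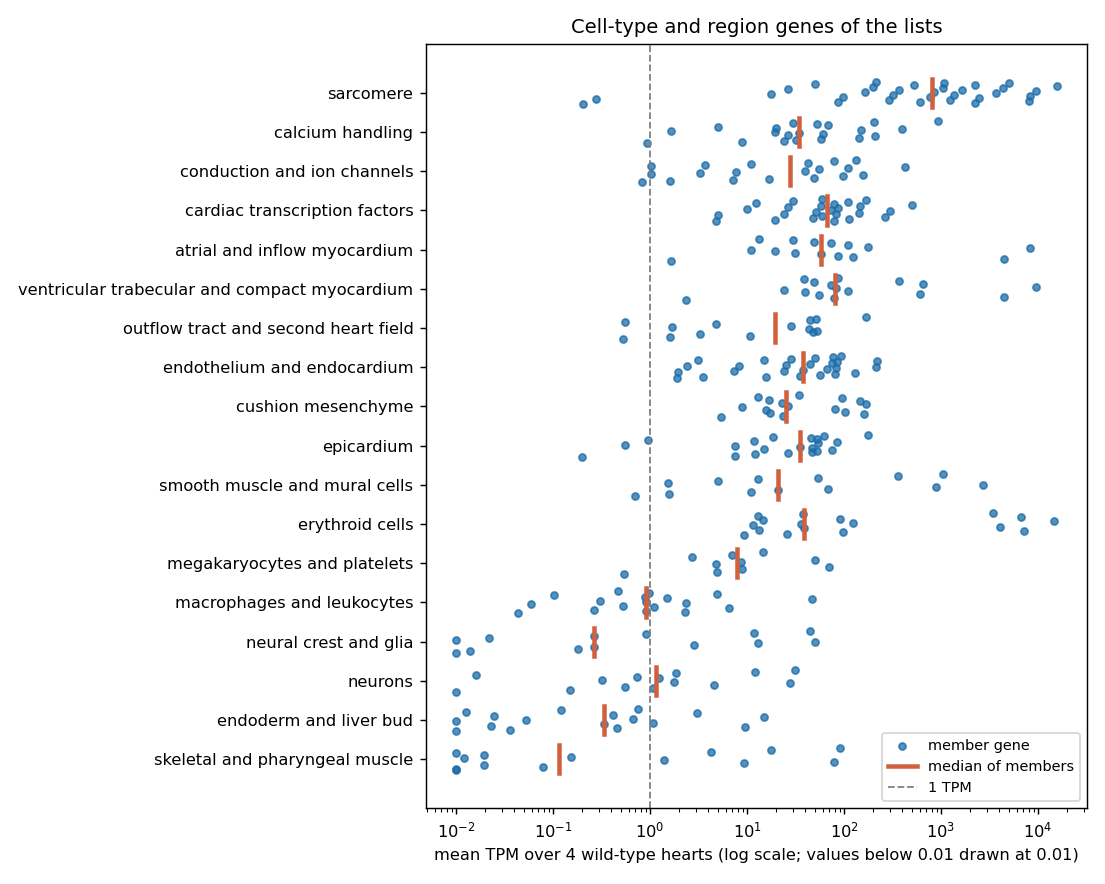
Mean TPM over the 4 wild-type hearts on a log axis, with 1 point per gene of each cell-type or region list, the median of each list as a bar and 1 TPM as a dashed line. Sarcomere genes have the highest median, and the lists for leukocytes, neural crest, liver bud and skeletal muscle have medians under 1 TPM.

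The globin genes were mainly those of primitive red cells. The 6 haemoglobin genes of the red cell list took 4.08, 3.02, 4.06 and 3.19% of TPM in hearts 1 to 4, a mean of 3.59% ± 0.559 (SD, n = 4; 3.78% without heart 2). As a share of reads, with no division by gene length, they took 1.01%. A further globin gene, Hbb-bh2, had 6 to 13 reads and was not in the sum. Hearts 1 and 3 were high and hearts 2 and 4 low, with no overlap. The embryonic beta-like globin Hbb-y stood at 16715, 11922, 16314 and 13347 TPM, the embryonic Hbb-bh1 at 8636, 5385, 6705 and 5869 TPM and the embryonic alpha-like Hba-x at 7524, 6080, 8618 and 6387 TPM. The embryonic globins Hbb-y, Hbb-bh1 and Hba-x made up 79.0% ± 1.64 of the TPM of these 6 genes. Hbb-bt, another adult beta globin of the red cell list, matched no gene symbol here and is in none of these values. The adult beta level is thus that of Hbb-bs alone. The adult beta globin Hbb-bs stood at only 38.4, 38.7, 41.1 and 25.1 TPM, while the adult alpha globins Hba-a1 and Hba-a2, whose reads cannot be told apart with certainty, held 27.6 and 23.5% of alpha-like globin. All 17 measured red cell genes reached 1 TPM in every heart, including the haem enzyme gene Alas2 (118, 77.7, 109 and 83.4 TPM) and the erythroid factor Klf1 (29.9, 20.1, 26.3 and 27.8 TPM).

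Spread between the 4 hearts was small for most genes. Among 11156 genes with a mean of at least 5 TPM, the median coefficient of variation of CPM, scaled to library size by TMM, was 7.07%. Its 5th to 95th percentile ran from 2.39 to 19.96%, and counting error alone would give a median of 3.13%. The highest heart exceeded the lowest at least 2-fold for 181 of these genes (1.62%; 128 without heart 2, 109 without heart 3). Among protein-coding genes of 200 bases or more the count was 77 of 10505 (0.733%), of which 4 were the Y-linked genes given below. The 2 hearts of litter 5, hearts 2 and 3, were no closer than others: their log2 ratios had an SD of 0.280, against 0.231 to 0.272 in the other 5 pairs.

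The genes of widest spread were mostly small RNAs. Leaving aside 5 sex-linked genes given below, whose coefficients of variation were 115 to 116%, the 25 with the largest coefficient of variation were counted. Of these, 18 were under 200 bases, 15 were small nucleolar RNAs and 2 were protein-coding, Shox2 and Smoc2. Snord73b, the widest, stood at 16.5, 2.01, 1.13 and 3.12 TPM with only heart 1 high. These levels rest on 12, 2, 1 and 2 reads, for which counting error alone would give 48.5%. The pseudogene Erdr1 stood at 18, 5.61, 152 and 88.5 TPM, with hearts 3 and 4 high. Short genes carry few reads, so their spread is less certain.

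**Figure D4:**
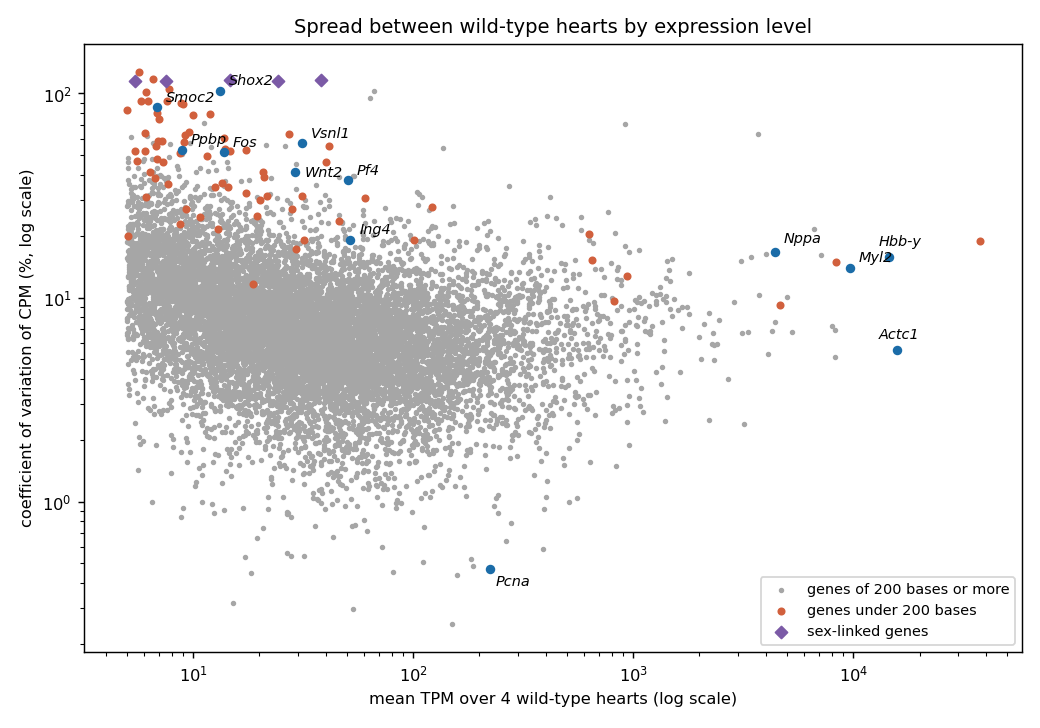
Coefficient of variation of CPM between the 4 wild-type hearts against mean TPM, both on log axes, for the 11156 genes with a mean of at least 5 TPM. Genes under 200 bases and the sex-linked genes lie at the top, Shox2, Smoc2 and Vsnl1 stand out among longer genes, and Pcna lies near the bottom.

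Of the 73 protein-coding genes that differed 2-fold and were not sex-linked, 21 (28.8%, against 14.1% of all) had hearts 1 and 2 as the 2 highest, and 12 (16.4%, against 14.0% of all) had hearts 1 and 3. The 12 included Shox2, Smoc2 and Calca, the 3 of widest spread among the 73, and Vsnl1. Shox2, a homeobox gene of the sinus node and the inflow, stood at 17.9, 1.57, 30.5 and 3.05 TPM, 19.01-fold apart between the highest and the lowest heart in library-scaled counts. Both high hearts lay far above both low ones, and counts ran from 35 in heart 2 to 606 in heart 3. Vsnl1, a calcium sensor gene, stood at 44.7, 15.5, 48.6 and 16.3 TPM and the matrix gene Smoc2 at 7.80, 2.40, 14.8 and 2.38 TPM. Wnt2, known to act in the venous pole, stood at 30.8, 16.5, 44.9 and 24.3 TPM, and Osr1, a gene of the posterior second heart field, at 7.59, 2.91, 10.1 and 5.28 TPM. In each of these genes both high hearts lay above both low ones, and with heart 2 left out heart 4 was still the lowest. The venous and atrial factors Nr2f1 (35.2, 19.9, 40.5 and 22.2 TPM) and Nr2f2 (20.6, 15.6, 24.1 and 16.8 TPM) followed the same order with smaller gaps. So did Hcn4 (48.7, 41.6, 61.6 and 45.1 TPM), the node factor Tbx3 (10.9, 9.09, 11.9 and 8.36 TPM) and the epicardial precursor gene Sfrp5 (15.2, 10.05, 20.5 and 13.6 TPM).

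Among all 10505 protein-coding genes of 200 bases or more, hearts 1 and 3 were the 2 highest in 14.0%. In the atrial and inflow list this held for 8 of 14 genes (57.1%), in the red cell list for 12 of 17 (70.6%) and in the list of cardiac transcription factors for 12 of 25 (48.0%). In the sarcomere list it held for 1 of 30, and in the endothelial list for 2 of 22. The pattern was noticed after the values were seen, and Shox2, Vsnl1, Nr2f1, Nr2f2 and Hcn4, given above, are members of the inflow list. The inflow and transcription factor lists share Nr2f1, Nr2f2 and Tbx5, so they are not separate. All these shares describe these 4 hearts only. In the ventricular list, 9 of 15 genes had hearts 2 and 4 as the 2 highest, against 16.0% of all. This order was not particular to that list, since 10 of 22 endothelial, 11 of 26 matrix and 10 of 30 sarcomere genes had it. It held for 3 of 25 cardiac transcription factors and 0 of 17 red cell genes. The ventricular gene Cited1 stood at 529, 803, 624 and 659 TPM, and Nppa, Myl2 and Myh7, given above, were likewise higher in hearts 2 and 4, with smaller gaps. Myh6 was higher in hearts 1 and 3, and Myl7 and Irx3 followed neither order. In the epicardial list 4 of 18 genes had hearts 1 and 3 as the 2 highest. Tbx18 and Isl1, also known from the inflow, did not follow the pattern.

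**Figure D5:**
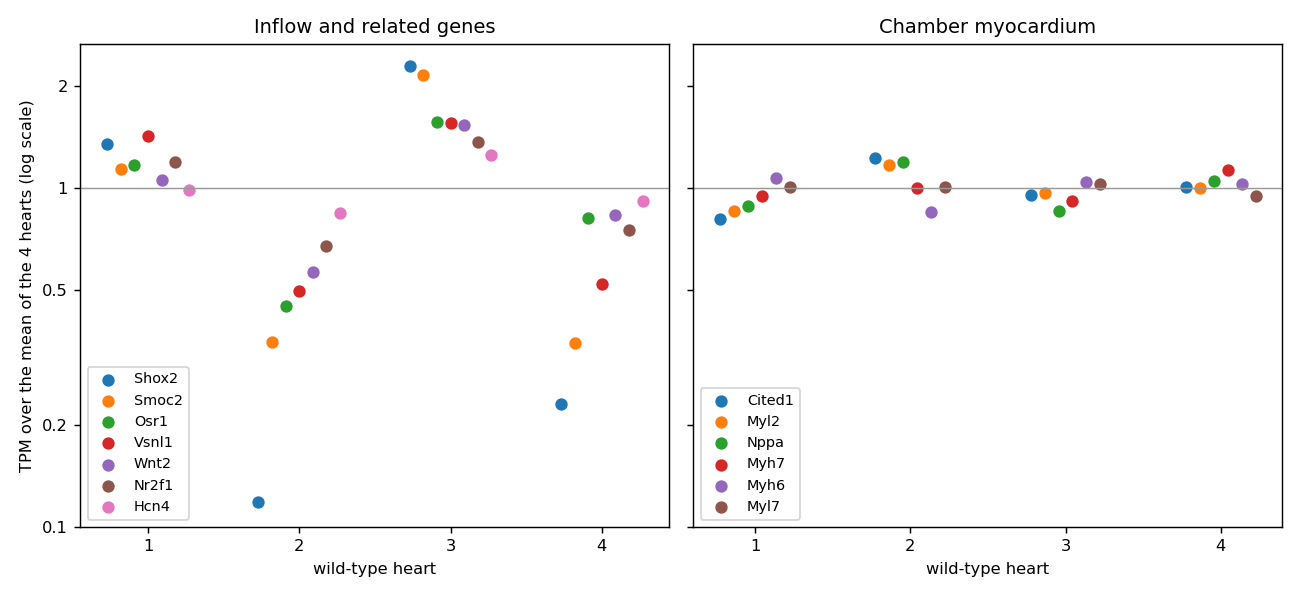
TPM of each gene divided by its mean over the 4 wild-type hearts, on a log axis, for inflow and related genes (left) and chamber genes (right). The inflow and related genes drawn, picked after their values were seen, are high in heart 3 and low in hearts 2 and 4. Tbx18 and Isl1, which did not follow this order, are not drawn. The chamber genes drawn stay near 1 in every heart.

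The sex of the embryos fell along the same line. The Y-linked Eif2s3y stood at 80.6, 0, 72 and 0 TPM and Ddx3y at 32.3, 0, 26.4 and 0.0477 TPM, while Xist, the RNA of the inactive X, stood at 0.0109, 49.4, 0.00897 and 48.3 TPM. Hearts 1 and 3 thus carried Y-linked RNA and hearts 2 and 4 carried Xist. With these 4 hearts, sex cannot be told apart from the order of red cell RNA and of inflow genes such as Shox2 and Vsnl1. Litter did not fall along this line, since hearts 2 and 3 shared a litter. The atrial and inflow list as a sum did not either, at 1.30, 1.43, 1.32 and 1.32% of TPM in hearts 1 to 4.

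Genes of megakaryocytes and platelets, the clotting cells of the blood, varied in another order. Of the 6 with a mean of at least 5 TPM, 4 differed at least 2-fold between hearts (against 1.62% of all genes), and their median coefficient of variation was 38.5%. The chemokine Pf4 stood at 76.3, 37.3, 35 and 53.2 TPM, its relative Ppbp at 11.3, 6.75, 3.27 and 14.1 TPM and the platelet receptor Gp9 at 12.4, 6.08, 5.35 and 10.5 TPM. Hearts 1 and 4 were higher than hearts 2 and 3 in all of these, so they did not follow the red cell genes. The immediate early gene Fos, a rapidly induced transcription factor gene, stood at 7.80, 8.81, 14.5 and 23.9 TPM, highest in heart 4. The immediate early genes Jun (80.3, 91.9, 104 and 99 TPM), Egr1 (16.8, 11.7, 17.1 and 19.2 TPM) and Jund (303, 297, 295 and 299 TPM) varied less.

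Many ribosomal protein genes, which every cell uses, were lowest in heart 3, while their summed level was lowest in heart 4. The sums were 32495, 34102, 30043 and 29469 TPM in hearts 1 to 4. Of 80 with a mean of at least 5 TPM, 51 were lowest in heart 3 (against 24.7% of all protein-coding genes of 200 bases or more at that level). The 80 had a median of -0.27 in heart 3 on the log2 scale against the mean of the other hearts, and 8 differed 2-fold (against 0.733%). Protein-coding genes of 200 to 600 bases moved in part with them, with medians of 0.07, 0.16, -0.08 and -0.14 in hearts 1 to 4 on the log2 scale around each gene's mean. Of these 172 genes, 69 were lowest in heart 3 and 77 in heart 4. The part of gene length in the ribosomal values was not tested.

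The steadiest genes formed no single class. Among 3742 genes with a mean of at least 50 TPM, the smallest coefficients of variation were those of Zc3h15 (0.250%; 150.1, 147, 150.5 and 155 TPM) and Ythdf3 (0.297%; 53.2, 52.3, 53.4 and 54.4 TPM), which encodes a reader of methylated RNA. Pcna, the splicing factor Srsf7, the nuclear pore gene Nup85, Ilrun, Tusc3, Lbh and Rabl6 were also among the 10, up to 0.598% for Rabl6. These values lie below the spread that counting error gives for such genes, 1.72% for Zc3h15, so their order is not resolved.

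Among signalling genes, ligands of the BMP and VEGF families followed Igf2. Bmp7 stood at 205, 209, 227 and 222 TPM and Vegfb at 193, 199.7, 211 and 194 TPM. Bmp10, which sustains growth of the trabeculae, stood at 79.4, 86.6, 68 and 92.5 TPM, lowest in heart 3, and the endocardial neuregulin Nrg1 at 6.70, 6.12, 5.20 and 6.78 TPM. Its receptors on cardiomyocytes, Erbb2 (79.1, 85.2, 87.2 and 84.4 TPM) and Erbb4 (19.5, 18.7, 18.2 and 19 TPM), were both present. All 29 receptors of the list reached 1 TPM in every heart. The adrenergic receptor Adrb1 (4.71 to 5.51 TPM) and the muscarinic receptor Chrm2 (2.39 to 3.31 TPM), through which nerves set the adult heart rate, were low.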

How the data were processed

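RNA of 16 mouse embryonic hearts was sequenced from stranded libraries, per the labels' protocols, and 4 were described here. Raw gene-level counts were deposited, beside gene lengths in bases, in 1 table for the series and 16 equal single-sample tables. Per the submitters' processing notes, bcl2fastq, featureCounts and mm10 were used. Versions, the aligner, the annotation and the strand setting of counting are not given in the sources used, so overlapping and antisense genes cannot be told apart. Of 27179 gene IDs, 25275 (93.0%) matched a symbol in RefSeq tables of GRCm38.p6. The 1904 others held 1.27 to 2.80% of reads and were counted but not named.

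TPM used the deposited lengths over all genes. Spread between hearts used CPM scaled by edgeR 4.0.16 (TMM factors 0.998 to 1.003) in R 4.3.3, with values under 3 reads raised to 3 for folds. The common biological coefficient of variation was 0.0914. For any 2 hearts, chi-square over its degrees of freedom was 8.82 to 29.3, more than counting error gives. Each library was a separate embryo by its label, and no test between groups was made. The code for spread was tested on simulated data.

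The hearts and gene lists were chosen with earlier results of these data known. Named were the 25 genes of highest mean TPM, the 6 highest members of each list and its markers near 0, members of isoform families, the 25 genes of largest spread at a mean of 5 TPM or more (predicted genes left out, 5 sex-linked genes given apart) and the 10 of smallest spread at 50 TPM or more. Other genes named for their spread or low level were chosen after their values were seen. Alternatives were shares of reads, other thresholds, DESeq2 1.42.0 size factors, library totals, genes of 200 bases or more, and leaving out each heart.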

Additional observations from a re-analysis of the deposited data

Results flagged for a closer look

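Among 291 values tested for a single heart far from the other 3, 14 stood apart by Dixon's test. Chance gives this in about 1 in 20 groups, and the count lies near that share. No single flag below is therefore shown to be more than chance. In heart 2, Ing4 was low at 36.1 TPM against 56.0 to 58.2 TPM in the others, and Crabp1 (16.5 TPM) and Lyz2 (62.6 TPM) were high. The atrial and inflow list as a share of TPM was also high in heart 2, at 1.43%, and the endoderm and liver bud list low, at 0.00272%. The inflow share is set mainly by Myl7 and Nppa, the 2 most abundant members, and so ran against Shox2 and Vsnl1.

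In heart 1, Gja5 (100.6 TPM) and Wnt11 (42.3 TPM) were low and Snord73b (16.5 TPM) was high. In heart 3, Pgam1 (496 TPM), Slc25a5 (889 TPM) and Tpm3 (107 TPM) were low and Ubb-ps (3797 TPM) was high, all 4 of them genes with near-identical copies. In heart 4, Hbb-bs was low at 25.1 TPM and the signalling receptor list high at 0.169% of TPM.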

How the results depend on the processing

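No paired analysis was possible because a single genotype was described and no result came from a test. Leaving out each heart in turn gave 13279 to 13355 genes detected, 12.03 to 12.67% for the 10 most abundant genes, 7.14 to 7.44% for sarcomere genes and 3.43 to 3.78% for haemoglobin genes. It gave 109 to 150 genes that differed 2-fold, with the 109 reached without heart 3, where fewer hearts are compared. As shares of reads, with no division by length, the 10 most abundant genes held 6.62%, sarcomere genes 5.13%, haemoglobin genes 1.01%, Tnni1 77.9% of troponin I, Actc1 71.7% of actin and Hba-x 50.6% of alpha-like globin. With genes of 200 bases or more, chosen after seeing the data, the 10 most abundant genes held 9.38% and sarcomere genes 7.69%. The count of 2-fold genes, 181 at a mean of 5 TPM or more, was 967 at 1 TPM or more, 74 at 10 TPM or more and 2530 with any gene counted in every heart. At 1.5-fold it was 748, and 77 among protein-coding genes of 200 bases or more. DESeq2 size factors gave 181 and library totals 180. The first member was the same by reads in 36 of 38 families, the exceptions being the D-type cyclins and the MEF2 factors. Genes with few reads, small RNAs above all, are limited by depth.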
